A study of Mus musculus with 32 samples.

Results

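Creatine kinase, adenylate and phosphagen genes are 10 genes that make, carry or spend the high-energy phosphate and adenine nucleotide reserves of muscle. They were picked by name from the table of 33397 genes, by a rule that used no measured value but was set with earlier results of these data known. They are the creatine kinases Ckm, Ckmt2 and Ckb, the adenylate kinase Ak1, the AMP deaminases Ampd1 and Ampd3, the adenylosuccinate synthase Adss, the creatine transporter Slc6a8, and the creatine synthesis enzymes Gatm and Gamt. All 10 were in the table, and all 10 were among the 22071 genes tested. RNA was sequenced from the gastrocnemius (GAS), the large calf muscle, of C57BL/6 mice at 0, 1, 3, 5, 7, 14, 21 and 28 d after sciatic nerve transection, which gave 8 groups of 4 samples. By the study's methods the mice were male C57BL/6J animals aged 6 to 8 weeks, and a piece of the nerve of the left hind leg was removed. The methods name isoflurane anaesthesia and the analgesic buprenorphine before surgery. The labels name the transection for every sample, 0 d included, while the table marks the 0 d columns with a C, so that 0 d served as the control. The same labels give GAS as the tissue and retina in the extraction text, and the 6 fast muscle fibre markers summed to 24726 to 44035 FPKM in the 32 samples, whereas the retina markers Sag and Gnat1 had means of at most 0.0441 and 0.0762 FPKM on any day.

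Values are FPKM, fragments per kilobase of exon scaled to the depth of the sample, which allow levels of different genes to be set side by side because they are per length. Fold changes are on the log2 scale after adding 1 to the FPKM, and understate the change of genes with low values. A gene was called higher or lower when its limma adjusted p, corrected by Benjamini-Hochberg over all 22071 genes, was under 0.05 and its change at least 1.5-fold. Over the 11943 genes that averaged 1 FPKM or more, the median log2 fold change was 0.12 at 1 d and 0.20 to 0.32 from 3 to 28 d. After median-ratio scaling, which divides each sample by its median ratio to the other samples, that median lay between -0.02 and 0.03, so the log2 fold changes under this scaling are relative to the shift and are given beside those of the deposited values. The study describes its samples as biologically independent, but no label ties a column of the table to an animal, so the p-values measure the spread between these samples.

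Muscle keeps ATP steady through a few near-equilibrium reactions. Creatine kinase moves phosphate between ATP and creatine, with Ckm (the muscle type) and Ckb (the brain type) in the cytosol and Ckmt2 (the sarcomeric mitochondrial type) beside the site of ATP export, while adenylate kinase remakes ATP from ADP and leaves AMP. AMP deaminase turns that AMP into IMP, and adenylosuccinate synthase starts the way back from IMP to AMP, which closes the purine nucleotide cycle. Creatine itself is made by Gatm and then Gamt, largely outside muscle, and is taken up by Slc6a8.

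By GENCODE M21 on GRCm38, Ckm (ENSMUSG00000030399) lies at chr7:19404776-19422841, Ckmt2 (ENSMUSG00000021622) at chr13:91853387-91876885 and Ckb (ENSMUSG00000001270) at chr12:111669361-111672338. Ak1 (ENSMUSG00000026817) lies at chr2:32621758-32635058, Ampd1 (ENSMUSG00000070385) at chr3:103074014-103099720 and Ampd3 (ENSMUSG00000005686) at chr7:110768206-110812405. The remaining 4 are Adss (ENSMUSG00000015961) at chr1:177762962-177796511, Slc6a8 (ENSMUSG00000019558) at chrX:73673150-73682502, Gamt (ENSMUSG00000020150) at chr10:80258151-80261012 and Gatm (ENSMUSG00000027199) at chr2:122594467-122611303.

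RefSeq promoters of GRCm38.p6 were given for 8 of the 10 genes, and the 250 bases before the transcript start are shown for the 3 creatine kinase genes whose courses are set against each other. Ckm lies on the plus strand and its window is chr7:19410844-19411093. Ckmt2 lies on the minus strand with the window chr13:91876886-91877135, and Ckb on the minus strand with chr12:111672339-111672588. Capitals mark a CAGCTG E-box in Ckm and Ckmt2 and a match to the MEF2 consensus in Ckb.
Ckm: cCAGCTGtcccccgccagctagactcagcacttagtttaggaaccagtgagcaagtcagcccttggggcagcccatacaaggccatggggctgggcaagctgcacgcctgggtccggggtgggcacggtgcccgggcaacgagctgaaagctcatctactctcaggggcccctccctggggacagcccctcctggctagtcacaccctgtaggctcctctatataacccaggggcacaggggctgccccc
Ckmt2: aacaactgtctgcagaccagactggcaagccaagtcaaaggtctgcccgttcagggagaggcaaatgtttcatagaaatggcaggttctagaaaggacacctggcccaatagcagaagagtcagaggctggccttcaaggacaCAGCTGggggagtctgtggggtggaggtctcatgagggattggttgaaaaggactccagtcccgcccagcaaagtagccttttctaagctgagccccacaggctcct
Ckb: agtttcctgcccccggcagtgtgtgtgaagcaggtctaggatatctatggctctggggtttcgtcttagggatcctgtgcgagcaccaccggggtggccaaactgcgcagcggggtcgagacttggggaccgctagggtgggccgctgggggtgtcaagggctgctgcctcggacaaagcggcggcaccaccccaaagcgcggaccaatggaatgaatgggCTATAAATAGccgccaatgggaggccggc
Both strands of each window were searched for CAGCTG (an E-box that myogenic factors bind), CATTCCT (the M-CAT element), AAGGTCA (an element of oestrogen-related receptors), GTAAACA (a forkhead element), the MEF2 consensus and the CArG box. CAGCTG was found in 13.0% of the 32851 promoters of the same length, CATTCCT in 4.51%, AAGGTCA in 4.08%, GTAAACA in 3.17%, the MEF2 consensus in 2.92% and the CArG box in 1.47%. The Ckm E-box lay 249 to 244 bases before the start and that of Ckmt2 107 to 102 bases before it. In Ckb the match lay 29 to 20 bases before the start, and it also holds the letters TATAAA. Ak1 has 4 listed promoters, of which 2 held a CAGCTG and 1 an AAGGTCA, and 1 of the 3 Ampd3 promoters held a CArG box. No match to these letters was in the windows of Adss, Gamt and Gatm. Ampd1 and Slc6a8 are named only.

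Over the whole time course, 9 of the 10 genes differed among the 8 time points (moderated F test of limma, adjusted p from 3.5e-21 for Ak1 to 0.0041 for Ckb), beside 63.2% of all genes tested. Gatm did not pass, with an adjusted p of 0.24. The genes with the highest FPKM in control muscle, Ckm, Ckmt2, Ak1 and Ampd1, all fell. Ampd3 rose, and Ckb, Gamt and Gatm, all at low levels, varied more between replicates at 0 d relative to their means than Adss, which was as low (5.80 ± 0.94, 6.30 ± 0.95, 4.55 ± 0.93 and 5.15 ± 0.13 FPKM, SD, n = 4).

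**Figure D1:**
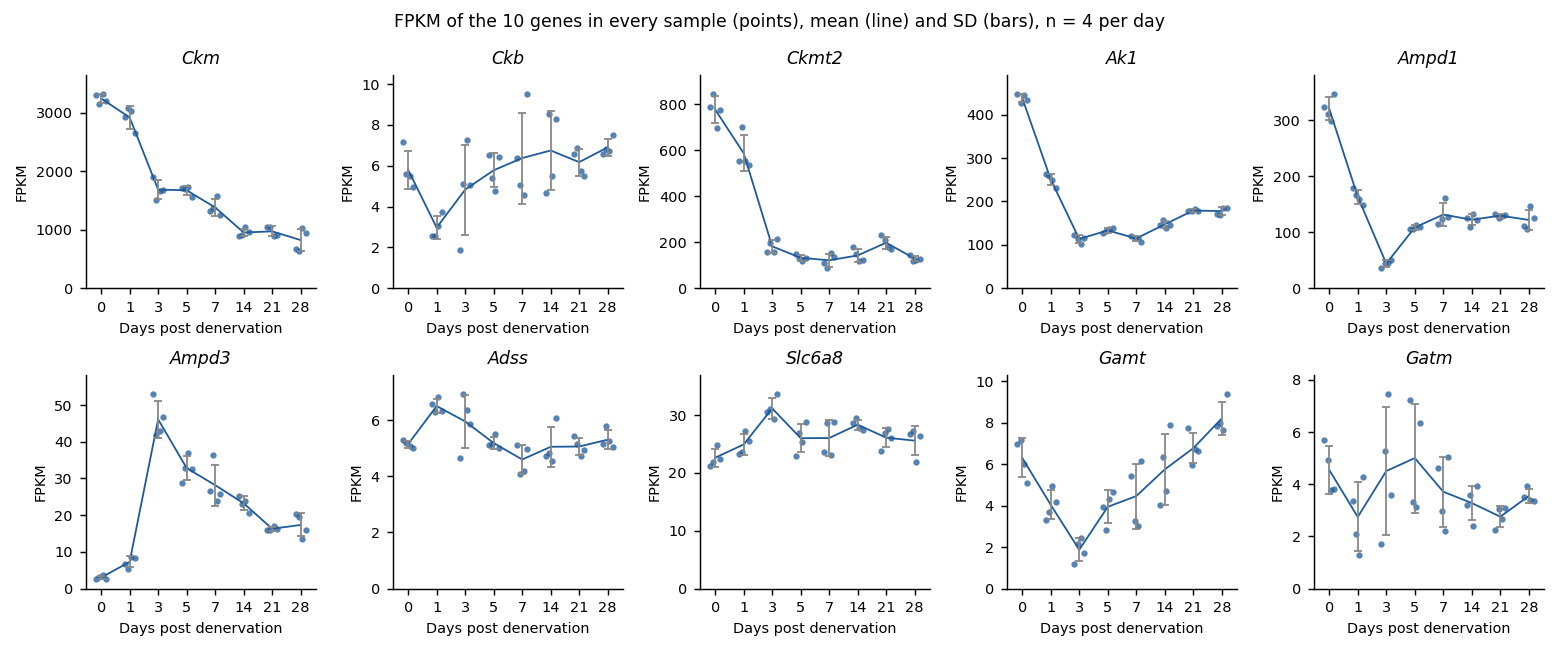
FPKM (y axis, linear from 0, its own scale in each panel) of the 10 genes at 0 to 28 d post denervation (x axis, time points evenly spaced), where points are samples, lines join means and bars are SD (n = 4). Ckm, Ckmt2, Ak1 and Ampd1 are lower in every sample from 3 d on than in any control sample, Ampd3 peaks at 3 d, and Gamt is lowest at 3 d.

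Ckm, which encodes the cytosolic creatine kinase of muscle fibres, had the highest FPKM of the 10 genes at every time point and was lower from 3 d on. In the 4 control samples it stood at 3307, 3148, 3319 and 3198 FPKM, and at 1 d at 2921, 3086, 3023 and 2644. At 3 d the samples read 1897, 1504, 1668 and 1671 FPKM, and at 5 d 1720.0, 1693, 1726 and 1555. Every sample of 1 d lay below every control sample, yet the difference was small (log2 fold change -0.15, SE 0.11, adjusted p = 0.36), whereas from 3 d on the levels were well apart from the control.
Samples of 7 d read 1323, 1368, 1581 and 1251 FPKM, those of 14 d 900.5, 906, 1046 and 954, and those of 21 d 1039, 1051, 891 and 908. At 28 d 2 samples stood at 674 and 642 FPKM and the other 2 at 1023 and 950.2, the widest spread of the course relative to the mean. The mean went from 3243 ± 83.5 FPKM (SD, n = 4) to 822 ± 192 (SD, n = 4), which is 3.94-fold lower. The log2 fold change was -0.95, -0.95, -1.24, -1.77, -1.74 and -2.01 at 3, 5, 7, 14, 21 and 28 d (SE 0.11, adjusted p of 5.3e-08 or less at each), and -1.18 to -2.39 over the same days after median-ratio scaling. Quantile normalization, which forces all samples onto the same distribution, left -0.31 at 3 d and -0.37 at 5 d, below the 1.5-fold threshold, and the cause was not tested. Ckm took 0.945% of all fragments in control samples and 0.240% at 28 d on average. The 6 fast fibre markers summed to 41461 to 44035 FPKM at 0 d, 25106 to 29019 at 3 d and 24726 to 27821 at 28 d. At 3 d 3 of the 6 were called lower and none higher, beside 6.03% and 13.2% of all genes. At 28 d 5 were lower and 1 higher, beside 4.10% and 14.2%. The higher marker was Actn3, called at 7, 14, 21 and 28 d (log2 fold changes 0.69, 1.07, 0.89 and 0.65), of which median-ratio scaling left the call at 14 d alone (0.68). The part of these markers in the lower Ckm was not tested.
A noncoding antisense gene, A930016O22Rik, covers 451 bases (15.5%) of the Ckm exons with a mean of 2.30 FPKM. Whether fragments were counted by strand is not given in the sources used here.

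Ckmt2, the mitochondrial creatine kinase, fell to a low plateau by 3 to 5 d. Control samples held 789.8, 845, 699 and 775 FPKM, and 1 d samples 553, 703, 555 and 538. At 3 d they held 159.8, 197, 159 and 213 FPKM, and at 7 d 110.0, 86.6, 153 and 137. All samples from 3 d on lay below all samples of 0 and 1 d, while at 1 d the highest sample overlapped the lowest control sample.
From 0 to 5 d the means were 777 ± 60.4, 587 ± 77.7, 182 ± 27.1 and 132 ± 13.2 FPKM, and from 7 to 28 d 122 ± 29.3, 143 ± 26.5, 198 ± 26.5 and 129 ± 11.2 (SD, n = 4 each). The log2 fold change against 0 d was -0.41 at 1 d (adjusted p = 0.03, below 1.5-fold, but -0.60 and called after median-ratio scaling), -2.09 at 3 d, -2.70 at 7 d (6.39-fold lower), -1.97 at 21 d and -2.59 at 28 d. From 21 to 28 d the samples moved from 231, 208, 181 and 173 FPKM to 145, 119, 123 and 128, a log2 difference of -0.61 with an adjusted p of 0.046. That last step was called in the deposited values (1 of the 10 genes lower and 0 higher, beside 0.0408% and 0.159% of all genes). It was not called after median-ratio scaling (-0.69, adjusted p = 0.071), nor without any 1 of the 8 samples of those days (-0.68 to -0.54). Leaving out some single samples of other days also lost the call, with the log2 difference still -0.61 (limma adjusted p = 0.051 to 0.057). Ckmt2 shares 84 exon bases (5.65%) with the antisense gene 1700119I11Rik, which had a mean of 0.59 FPKM.
Because a ratio taken within a sample does not depend on the scaling of that sample, the creatine kinase genes were also set against each other. From 0 to 5 d the Ckm to Ckmt2 ratio of FPKM was 4.20 ± 0.422, 5.01 ± 0.469, 9.46 ± 2.07 and 12.7 ± 1.39, and from 7 to 28 d 11.8 ± 2.89, 6.88 ± 1.62, 4.93 ± 0.318 and 6.45 ± 1.71 (SD, n = 4 each). The samples of 3, 5, 7 and 14 d lay above all control samples, and those of 1, 21 and 28 d overlapped them. Ckmt2 made up 19.3% of the summed Ckm, Ckmt2 and Ckb FPKM in control muscle, 7.32% at 5 d and 16.8% at 21 d, while the sum went from 4026 ± 54.9 to 958 ± 189.5 FPKM at 28 d.

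**Figure D2:**
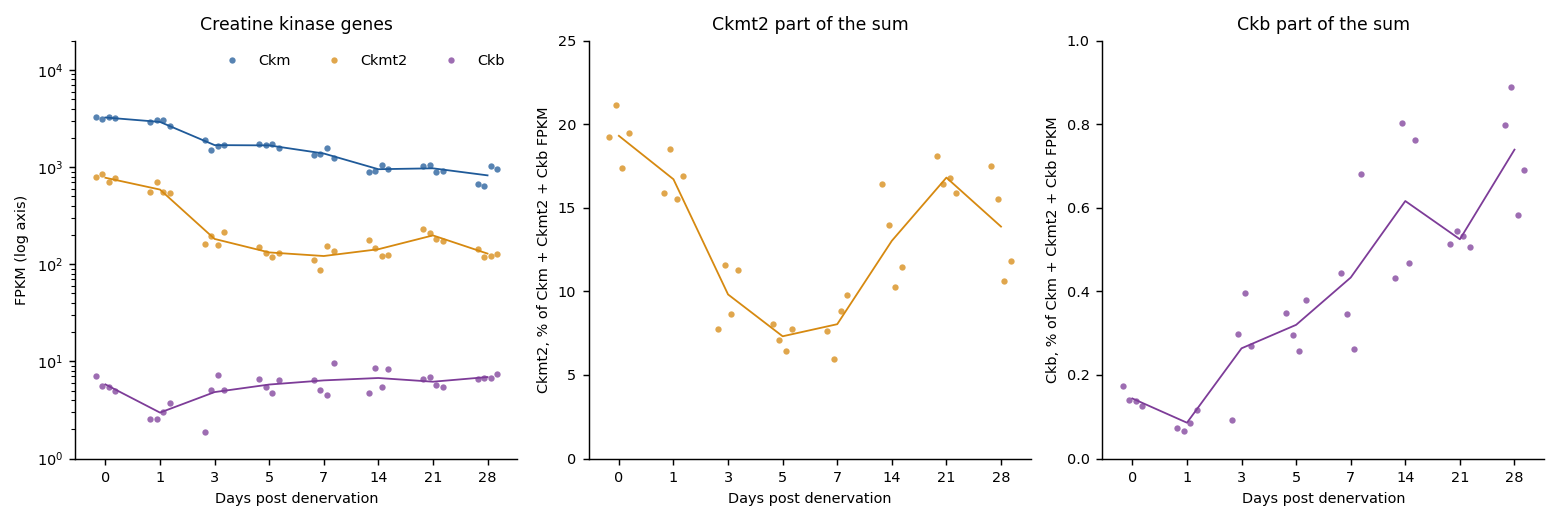
FPKM of Ckm, Ckmt2 and Ckb on a log axis (left), and Ckmt2 (middle) and Ckb (right) as a percentage of their summed FPKM on linear axes, at 0 to 28 d post denervation, where points are samples and lines join means (n = 4). Ckmt2 drops from 19.3% to 7.32% of the sum at 5 d and is at 16.8% at 21 d, and Ckb stays under 1% in all 32 samples.

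Ckb, the creatine kinase of brain and many non-muscle cells, stood at a few FPKM. Control samples held 7.15, 5.58, 5.50 and 4.96 FPKM, and 1 d samples 2.58, 2.54, 3.04 and 3.72, so the groups did not overlap. The drop at 1 d was called (log2 fold change -0.78, SE 0.22, adjusted p = 0.0070, 1.95-fold lower, and -0.95 after median-ratio scaling). Samples of 3 d read 1.89, 5.10, 7.26 and 5.08 FPKM, and by 28 d 6.58, 6.83, 6.71 and 7.49. No later day differed from 0 d by the call, with log2 fold changes from -0.31 to 0.23 as deposited and from -0.52 to -0.11 after median-ratio scaling, so that from 7 to 28 d the sign depended on the scaling. The Ckb part of the creatine kinase sum went from 0.14% ± 0.02 at 0 d to 0.74% ± 0.13 at 28 d. The log2 ratio of Ckb to Ckm, taken after adding 1 to each FPKM, lay above all control samples at 5, 7, 14, 21 and 28 d (means -7.96 to -6.67 against -8.91) and below them at 1 d (-9.53).

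Replicate 1 of 3 d was the lowest of the 4 samples of that day for Ckb, Gatm, Gamt, Adss and Ampd1, and the highest for Ckm, Ak1 and Ampd3. It held 1.89 FPKM of Ckb (others 5.08 to 7.26), 1.72 of Gatm (others 3.57 to 7.45) and 1.18 of Gamt (others 1.72 to 2.42), with 4.67 of Adss (others 5.87 to 6.93) and 36.7 of Ampd1 (others 44.3 to 50.1). The 5 macrophage markers summed to 247 FPKM in it against 399 to 815 in the others, the 5 fibroblast and fibro-adipogenic markers to 242 against 339 to 446, and the 5 Schwann cell markers to 9.58 against 10.4 to 24.6. Its 6 fast fibre markers summed to 27291 FPKM, within the range of the others. Median-ratio scaling divided this sample by 0.81 and the others of 3 d by 0.97 to 1.07. Mitochondrial genes took 13.5% of its fragments against 9.95% to 11.5% in the others. Without this sample the step from 1 to 3 d was called higher for Ckb (log2 difference 0.77, adjusted p = 0.0013) and for Gatm (0.81, adjusted p = 0.017), and with it for neither (0.47, adjusted p = 0.11, and 0.51, adjusted p = 0.18). The part that these markers or the scaling of this sample have in the Ckb and Gatm values was not tested.
Across time points the macrophage sum ranged from 111 to 160 FPKM at 0 d, 165 to 255 at 1 d, 247 to 815 at 3 d and 427 to 537 at 5 d. It ranged from 299 to 985 at 7 d, 308 to 800.2 at 14 d, 320 to 465 at 21 d and 358 to 434 at 28 d. All 5 markers were called higher at 3, 5 and 7 d, beside 13.2%, 14.9% and 15.4% of all genes. After median-ratio scaling 4 were called at 7 d, beside 7.15%. The Schwann cell sum ranged from 76.3 to 169 FPKM at 0 d, 18.4 to 108 at 1 d and 6.48 to 35.8 from 3 d on. Of its 5 markers, 2 were called lower at 1 d, where the Ckb mean was lowest, beside 2.49% of all genes. From 3 d on 2 or 3 were lower, beside 3.83% to 6.03% of all genes. At 5, 7, 14 and 28 d 1 was higher, beside 14.2% to 15.4%, and after median-ratio scaling at 7 and 14 d only. Their median log2 fold change at 5 d was 0.52. The endothelial sum ranged from 77.2 to 88.5 FPKM at 0 d and 45.3 to 63.0 at 3 d. At 3 d 3 of 4 markers were called lower, beside 6.03% of all genes. Replicate 4 of 7 d had the highest macrophage, fibroblast and Schwann cell sums of that day (985, 543 and 32.7 FPKM). It also had the most Ckb, Gamt and Gatm (9.52, 6.15 and 5.06 FPKM). Median-ratio scaling divided it by 1.14 and the others of 7 d by 0.95 to 1.11. None of the macrophage, fibroblast, Schwann cell and endothelial markers was at 0 in all samples of a day. In bulk muscle, fewer cells of a type and less RNA in each cannot be told apart, and the part of these cells in the results was not tested.

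Ak1, the cytosolic adenylate kinase of muscle, fell within 1 d and had the smallest SE of the 10 genes on the log2 scale (0.05). It held 448, 428, 446 and 434 FPKM at 0 d and 263, 258, 250.3 and 232 at 1 d. At 3 d it held 123, 113, 103 and 116 FPKM, and at 28 d 172, 169, 185 and 186. Its level was thus lowest from 3 to 7 d, stood higher from 14 d on, and stayed below every control sample at all later days.
The mean fell from 439 ± 9.66 to 251 ± 13.5 FPKM within 1 d and to 113 ± 8.24 at 3 d (SD, n = 4 each), a log2 fold change of -0.81 (adjusted p = 1.7e-12) and then -1.94 (SE 0.05, adjusted p = 3.2e-21). At 5, 7, 14, 21 and 28 d it was 133 ± 4.81, 115 ± 6.21, 147 ± 7.56, 179 ± 2.85 and 178 ± 8.59. From 3 to 28 d the log2 difference was 0.64 (adjusted p = 1.1e-10), and all 4 samples of 28 d lay above all 4 of 3 d. After median-ratio scaling it was 0.50 (adjusted p = 0.00018), below 1.5-fold. Smaller steps passed the p threshold without reaching 1.5-fold, and went up by 0.23 from 3 to 5 d (adjusted p = 0.0016), down with -0.21 from 5 to 7 d (adjusted p = 0.028), and up by 0.36 from 7 to 14 d (adjusted p = 0.00013) and 0.28 from 14 to 21 d (adjusted p = 0.0033). After median-ratio scaling the log2 differences were 0.08, -0.21, 0.34 and 0.37, and none of these 4 steps passed (adjusted p = 0.67, 0.44, 0.075 and 0.069).

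The AMP deaminase genes moved in opposite directions and met at 3 d. Ampd1, the muscle enzyme, held 323, 312, 299 and 347 FPKM in control samples, 178, 167, 159.8 and 148 at 1 d, and 36.7, 44.9, 44.3 and 50.1 at 3 d. Ampd3, known as the isozyme of red blood cells and many other tissues, held 2.54, 3.16, 3.59 and 2.65 FPKM in control samples, 6.73, 5.42, 8.66 and 8.26 at 1 d, and 52.9, 41.8, 42.9 and 46.6 at 3 d. No sample of 1 or 3 d overlapped the control samples for either gene.
Ampd1 was 7.27-fold lower at 3 d (log2 fold change -2.84, SE 0.10, adjusted p = 3.3e-19), the largest fall of the 10 genes at any day in the deposited values. After median-ratio scaling it was -3.08, level with Ckmt2 at 7 d (-3.08). It then rose from 44.0 ± 5.50 to 108 ± 4.03 FPKM at 5 d (log2 difference 1.29, adjusted p = 1.3e-10) and stayed between means of 122 and 131 from 7 to 28 d. At 28 d the samples read 110.2, 105, 146 and 126 FPKM, which is 2.63-fold below the control mean and above every 3 d sample.
Ampd3 was 15.4-fold higher at 3 d (log2 fold change 3.57, SE 0.13, adjusted p = 9.5e-19, and 3.40 after median-ratio scaling), the largest change of the 10 genes. Its means were 32.8, 28.2, 23.2 and 16.3 FPKM at 5, 7, 14 and 21 d. At 28 d the samples read 20.2, 19.6, 13.6 and 15.9 FPKM, 5.81-fold above the control mean and below every 3 d sample (log2 difference -1.37 from 3 d, adjusted p = 1.5e-09). Its exons share 195 bases (3.47%) with Rnf141 on the opposite strand, which had a mean of 4.32 FPKM. Red blood cell markers, summed over 5 genes, ranged from 226 to 492 FPKM at 0 d, 301 to 691 at 1 d, 181 to 314 at 3 d and 287 to 431 at 28 d. None of the 5 was called at any day against 0 d. After median-ratio scaling 3 were lower at 3 d and 2 at 7 d, beside 9.15% and 7.92% of all genes. Their part in the Ampd3 values was not tested.
Within each sample the FPKM of Ampd1 was 83.4 to 131 times that of Ampd3 at 0 d, 17.97 to 30.8 times at 1 d and 0.69 to 1.07 times at 3 d. At 5 and 7 d the ratio was 3.07 to 3.64 and 3.37 to 6.75, and at 14, 21 and 28 d it was 4.74 to 5.91, 7.53 to 8.39 and 5.36 to 10.8, so that no later sample came near the control range. Ampd2, the isozyme known from liver and other non-muscle tissue, stayed at means of 1.81 to 2.35 FPKM and was not called at any day. Of the summed FPKM of the 3 deaminase genes, Ampd1 made up 98.5% ± 0.26 at 0 d, 47.7% ± 4.85 at 3 d and 86.0% ± 3.59 at 28 d (SD, n = 4). The sum itself was 325 ± 19.8 FPKM at 0 d, 92.2 ± 4.34 at 3 d and 141 ± 15.4 at 28 d.

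**Figure D3:**
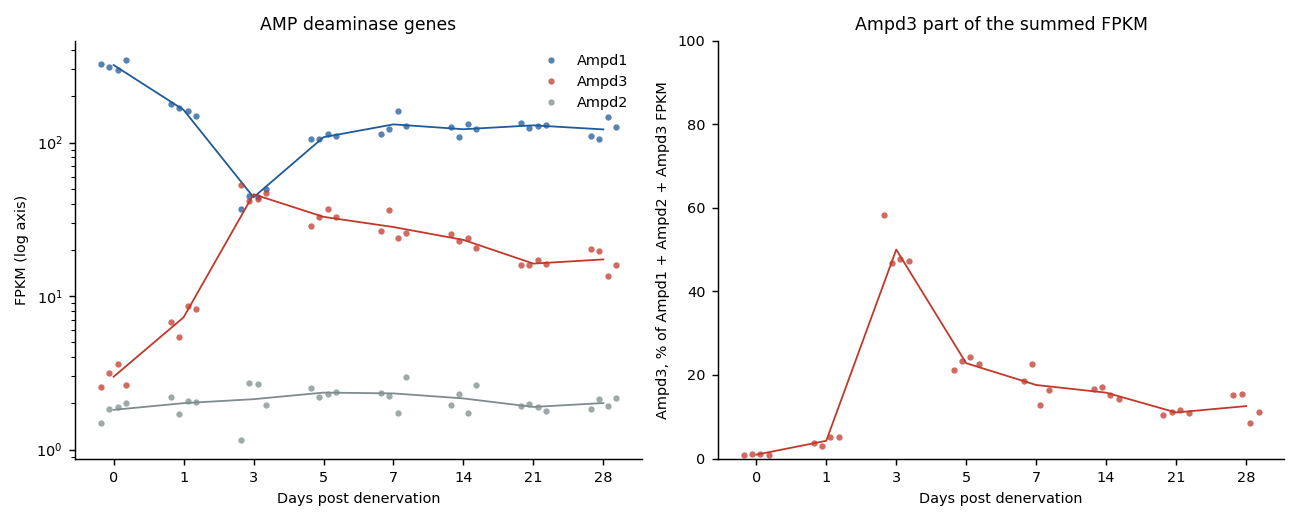
FPKM of Ampd1, Ampd3 and Ampd2 on a log axis (left) and Ampd3 as a percentage of their summed FPKM (right), at 0 to 28 d post denervation, where points are samples and lines join means (n = 4). Ampd1 and Ampd3 meet at means of 44.0 and 46.1 FPKM at 3 d, and Ampd3 makes up between 46.7% and 58.3% of the sum on that day against 0.76% to 1.18% in control samples.

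Adss, the adenylosuccinate synthase of non-muscle tissue, was nearly level. It held 5.30, 5.21, 5.07 and 5.02 FPKM at 0 d and 6.57, 6.30, 6.82 and 6.34 at 1 d, the only day on which the groups did not overlap. The log2 fold change at 1 d was 0.29 (SE 0.08, adjusted p = 0.0075), short of 1.5-fold, and 0.13 after median-ratio scaling. From 3 to 28 d its means lay between 4.60 and 5.96 FPKM, with no call and with log2 fold changes of -0.14 to 0.17 as deposited and -0.46 to -0.03 after scaling.
Its muscle counterpart Adssl1, which is not among the 10 genes, was far higher per length. Adssl1 held 509.7, 531, 544 and 468 FPKM at 0 d, 523, 448, 440.1 and 468 at 3 d, 301, 316, 295 and 289 at 5 d and 143, 134, 146 and 167 at 28 d. It was not called at 1 or 3 d (log2 fold change -0.13 at 3 d, adjusted p = 0.17) and was called lower from 5 d on, down to -1.79 at 28 d (SE 0.07, adjusted p = 1.3e-17). At 1 d the samples of Adssl1 (418, 409, 452 and 443 FPKM) lay below all control samples, as did those of Ampd1 and Ak1. At 3 d the samples of Ampd1 and Ak1 were below the control range while those of Adssl1 overlapped it. The Adssl1 to Adss ratio of FPKM went from 99.7 ± 6.17 at 0 d to 27.97 ± 4.04 at 28 d (SD, n = 4).

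Slc6a8, the creatine transporter, moved little. It held 21.3, 21.9, 24.9 and 22.5 FPKM at 0 d and 30.6, 31.1, 29.3 and 33.6 at 3 d, so the groups did not overlap at 3 d. The log2 fold change was 0.45 (SE 0.08, adjusted p = 2.4e-05), under 1.5-fold, though rescaling to TPM gave 0.62 and a call. At 14 d the groups did not overlap either (0.31, adjusted p = 0.0014). On the other days but 3 d its means lay between 24.9 and 28.3 FPKM. After median-ratio scaling the log2 fold change was 0.22 at 3 d and below 0 at 1, 5, 7, 14, 21 and 28 d (-0.20 to -0.05), so a direction for the other days depended on the scaling.

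Gamt, the last enzyme of creatine synthesis, was lowest at 3 d. It held 6.97, 7.15, 5.99 and 5.10 FPKM at 0 d, 3.32, 3.69, 4.94 and 4.19 at 1 d, and 1.18, 2.15, 2.42 and 1.72 at 3 d, on 26 to 237 fragments a sample over the whole course. Samples of 1 and 3 d all lay below the control samples. At 3 d it was 3.37-fold lower (log2 fold change -1.36, SE 0.18, adjusted p = 2.8e-07). From 3 to 5 d it rose by a log2 difference of 0.79 (adjusted p = 0.0014), and at 28 d it held 7.84, 7.95, 7.62 and 9.36 FPKM, above every control sample.
That last difference was not called (log2 fold change 0.34, adjusted p = 0.13, and 0.00 after median-ratio scaling), whereas the difference between 28 and 3 d was (1.70, SE 0.18, adjusted p = 1.1e-08, 4.38-fold). At 1, 5 and 7 d the log2 fold changes of -0.54, -0.57 and -0.46 passed the p threshold without reaching 1.5-fold, and all were called after median-ratio scaling (-0.71, -0.90 and -0.78). The values of 1 and 5 d were also called with a pseudocount of 0.1 and by limma-voom on recovered fragments (-0.63 and -0.68 under both), and that of 5 d on the total without mitochondrial genes (-0.68). With the deposited values, leaving out 1 sample was enough for a call: the 1 d value was called without control replicate 4 or replicate 3 of that day (-0.62 each), the 5 d value without control replicate 3 or 4 or replicate 3 or 4 of that day (-0.65 to -0.59), and the 7 d value without replicate 4 of that day (-0.60).

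Gatm, the first enzyme of creatine synthesis, varied most between replicates relative to its changes. It held 5.69, 4.93, 3.78 and 3.80 FPKM at 0 d, 3.36, 2.08, 1.28 and 4.26 at 1 d, 1.72, 5.28, 7.45 and 3.57 at 3 d, and 7.23, 3.31, 3.14 and 6.34 at 5 d. At 21 d it held 2.24, 3.04, 2.65 and 3.09 FPKM, the only day on which all samples lay below the control samples. No day was called as deposited (log2 fold changes -0.62 to 0.06), but without replicate 4 of 1 d that day was called lower (-0.81, adjusted p = 0.037). After median-ratio scaling it was called lower at 1, 14 and 21 d (-0.79, -0.70 and -0.81), so for Gatm the call depended on the scaling, and the cause was not tested. Both creatine synthesis genes were low in this muscle beside Slc6a8, whose FPKM at 0 d was 22.6 ± 1.57 against 6.30 ± 0.95 for Gamt and 4.55 ± 0.93 for Gatm.

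Counted by day, 3 of the 10 genes were called lower and 1 higher at 1 d, beside 2.49% and 6.34% of all genes tested. At 3 d 5 were lower and 1 higher (6.03% and 13.2% of all genes). From 5 d on 4 were lower and 1 higher at each day, beside 3.86%, 4.10%, 3.83%, 3.93% and 4.10% of all genes lower. The matching background of higher genes was 14.9%, 15.4%, 14.6%, 11.8% and 14.2%. All 10 genes averaged 1 FPKM or more, and a larger share of such genes was called. Of the 11943 such genes 1130 were lower and 2743 higher at 3 d, against 1330 and 2924 of all 22071. At 28 d 758 were lower and 2849 higher, against 906 and 3143. The 7 comparisons share the same 4 control samples. Median-ratio scaling gave 6 lower and 1 higher at 1 d (4.68% and 4.14% of all genes under that scaling) and then 5 lower and 1 higher up to 21 d and 4 lower and 1 higher at 28 d. Under it the background from 3 to 28 d was 9.15%, 7.68%, 7.92%, 7.53%, 7.15% and 8.11% of all genes lower and 9.00%, 6.70%, 7.15%, 6.56%, 6.43% and 6.57% higher. For the 10 genes the median of the log2 fold changes lay between -0.63 at 3 d and -0.12 at 28 d as deposited, and that of all genes tested between 0.03 and 0.15. After median-ratio scaling the median of the 10 was -0.85 at 3 d and -0.44 at 28 d, and that of all genes tested 0.00 and 0.02.

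**Figure D4:**
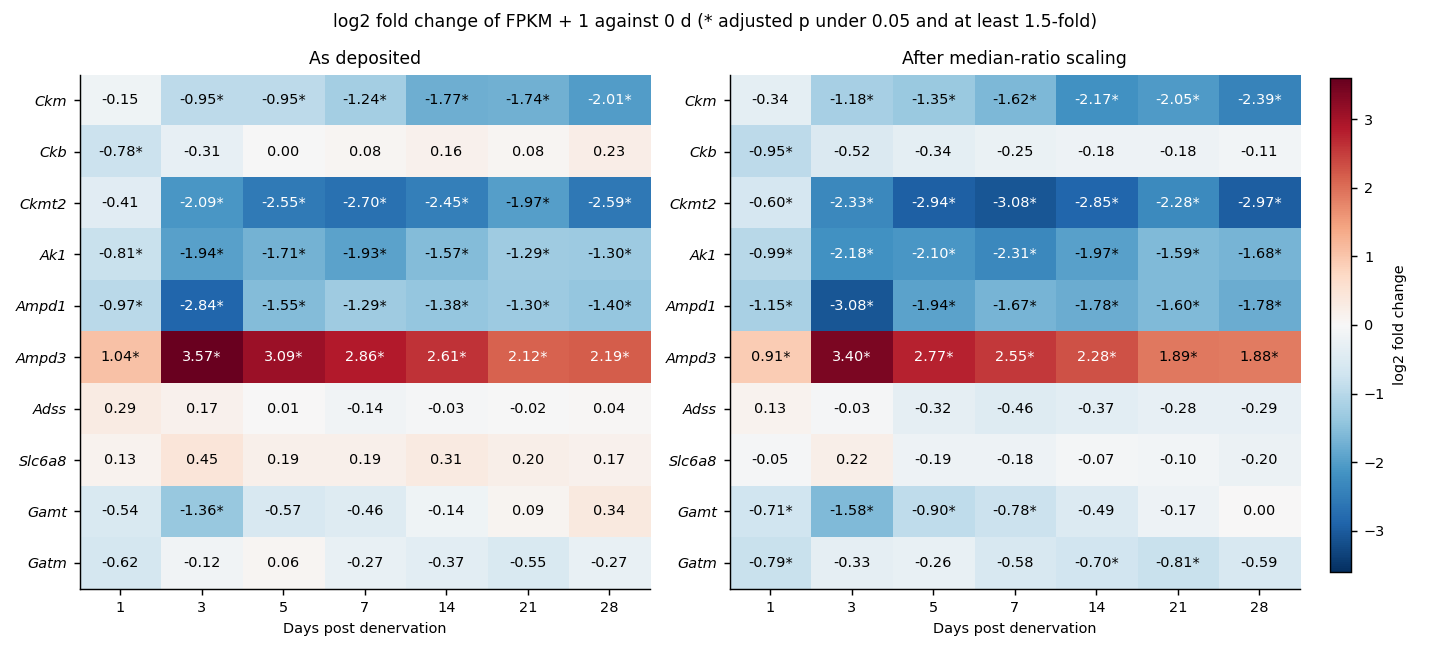
log2 fold change of FPKM + 1 against 0 d for the 10 genes (rows) at 1 to 28 d (columns), from the deposited values (left) and after median-ratio scaling (right), where blue is lower, red is higher and an asterisk marks an adjusted p under 0.05 with at least 1.5-fold. Ckm, Ckmt2, Ak1, Ampd1 and Ampd3 are called from 3 d on under both scalings, and calls for Gamt and Gatm are more numerous on the right.

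Most calls between neighbouring days fell before 5 d, although Ckm went from a log2 fold change of -0.95 against 0 d at 5 d to -2.01 at 28 d. From 1 to 3 d 5 of the 10 genes were called lower (Ckm -0.79, Ckmt2 -1.69, Ak1 -1.14, Ampd1 -1.87 and Gamt -0.82 on the log2 scale) and Ampd3 higher (2.52), beside 3.93% and 6.63% of all genes. Quantile normalization left -0.40 for Ckm over that step, which was not called. From 3 to 5 d Ampd1 and Gamt were called higher and none lower, beside 3.72% and 2.05% of all genes. Median-ratio scaling kept these as higher and called Ckmt2 (-0.61) and Ampd3 (-0.63) lower over the same step, beside 2.33% of all genes higher and 3.12% lower. From 5 to 7, 7 to 14 and 14 to 21 d limma called 0 of the 10 genes, beside 0.657%, 0.634% and 0.453% of all genes called. By limma-voom on recovered fragments it was also 0. At an unadjusted limma p under 0.05 there were 3, 2 and 3, and the share of all genes at that threshold is not given here. Without replicate 1 of 14 d, Ckmt2 was called higher from 14 to 21 d (0.59, adjusted p = 0.038). Ckm still fell by 0.53 on the log2 scale from 7 to 14 d (adjusted p = 0.0065), just short of 1.5-fold. After median-ratio scaling the log2 difference was -0.55 and did not pass the p threshold (limma adjusted p = 0.076).
Between 3 and 28 d, 3 genes were called higher (Ak1, Ampd1 and Gamt) and 2 lower (Ckm and Ampd3), beside 7.46% and 4.54% of all genes. After median-ratio scaling Ampd1 and Gamt were higher and Ckm, Ckmt2 and Ampd3 lower, beside 5.43% and 6.27% of all genes. Without replicate 3 of 3 d, Ckb was also called higher (0.73, adjusted p = 0.0092, against 0.53 and 0.058 with it).

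Likeness of course was measured by Pearson's r of log2(FPKM + 1) over all 32 samples, which share the time points, and is given as a description. Among the 10 genes the highest coefficients were 0.87 for Ckmt2 with Ak1, 0.82 for Ak1 with Ampd1 and 0.80 for Ckm with Ckmt2, and the lowest was -0.97 for Ak1 with Ampd3. Among named genes with a mean of at least 1 FPKM, Ckm was most like Mybpc2 and Carnmt1 (0.96 each), Ckmt2 like Slc25a4 and Me3 (0.97 each), and Ak1 like Lynx1 and Capn3 (0.98 each). Ampd1 was most like Hrc (0.97) and Tmem233 (0.96), Ampd3 like Psmd13 and Surf4 (0.98 each), and Ckb like Lpar1 (0.93) and Islr (0.91). Lower coefficients led for Gamt (Isoc1, 0.93, and Sparcl1, 0.92), Slc6a8 (Tecpr1, 0.86), Gatm (Usp6nl, 0.83, and Cnp, 0.81) and Adss (B4galt1, 0.78, and Atp10a, 0.77).

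The wider adenylate and purine pathway was described with lists of related genes. Slc25a4, the ADP/ATP carrier of muscle mitochondria, fell from samples of 1806, 1834, 1614 and 1642 FPKM at 0 d to 725, 644, 613 and 669 at 3 d and 718, 654, 779.8 and 707 at 28 d. Slc25a5, the carrier of other tissues, rose from a mean of 30.6 ± 1.39 to 76.8 ± 11.4 FPKM at 3 d (log2 fold change 1.29, adjusted p = 2.5e-12) and stood at 76.3 ± 6.39 at 28 d. Of the 5 genes for ATP and ADP exchange (these carriers and 3 voltage-dependent anion channels), 2 were lower and 1 higher at 3 d, and 3 lower and 1 higher from 5 d on, where median-ratio scaling gave 4 lower and 0 higher at 5, 7 and 14 d. Of all genes, 3.86% were lower and 14.9% higher at 5 d as deposited, against 7.68% and 6.70% under that scaling.
Among 8 genes of AMP-activated kinase, the sensor of AMP, the muscle subunit Prkag3 held 37.1, 30.8, 45.1 and 43.5 FPKM at 0 d, 12.2, 9.83, 12.8 and 11.3 at 1 d, 4.82, 5.16, 7.14 and 8.21 at 3 d, and 65.5, 76.6, 84.1 and 70.6 at 28 d. It was called lower at 1 d (log2 fold change -1.67) and 3 d (-2.46) and higher at 14, 21 and 28 d (0.70, 0.80 and 0.91), but the later calls were lost after median-ratio scaling (0.31, 0.50 and 0.54). Its lowest samples were those of 3 d, the day of the lowest Ampd1 samples. The catalytic subunit Prkaa2 was not called at 1 or 3 d and was called lower from 5 d on, from a mean of 44.7 ± 3.70 FPKM at 0 d to 12.5 ± 0.84 at 28 d (log2 fold change -1.76, adjusted p = 9.4e-15). The list had 1 gene lower and 0 higher at 1 d and 3 d, and 2 lower and 3 higher at 28 d, where median-ratio scaling left 2 lower and 0 higher. At 3 d 6.03% of all genes were lower and 13.2% higher, so the count of that day was close to the background.
Of 21 genes of the purine nucleotide cycle, salvage and breakdown, 8 were higher and 3 lower at 3 d, and 8 higher and 4 lower at 28 d, or 6 and 3, and 4 and 5, after median-ratio scaling. Of all genes 13.2% were higher and 6.03% lower at 3 d, and 14.2% and 4.10% at 28 d, or 9.00% and 9.15%, and 6.57% and 8.11%, after that scaling. Nt5c1a, a cytosolic nucleotidase that turns AMP into adenosine, held 7.39, 8.18, 12.4 and 8.98 FPKM at 0 d and 0.856, 0.245, 0.503 and 1.07 at 3 d (log2 fold change -2.62, adjusted p = 2.7e-15), on as few as 5 fragments in a sample, and had a mean of 1.74 ± 0.45 at 28 d. Adsl, which follows adenylosuccinate synthase in the cycle, went from 24.7 ± 2.03 to 17.4 ± 0.73 FPKM at 28 d (log2 fold change -0.48, adjusted p = 3.1e-07), short of 1.5-fold as deposited and called from 5 d on after median-ratio scaling (-0.85 at 28 d).
In the other creatine and adenylate kinases, 6 of 9 listed genes passed the filter on low values. Ak6, a nuclear adenylate kinase, was called lower from 7 d on and fell from 5.76 ± 0.37 to 2.20 ± 0.45 FPKM. Ckmt1, the ubiquitous mitochondrial creatine kinase, was at or near 0, with at most 3 fragments in any sample, and was not tested. Of the 5 genes of purine synthesis from the start, Atic alone was called, higher from 3 d on. Its log2 fold change was 0.83 at 3 d, with means of 4.15 ± 0.41 and 8.24 ± 1.33 FPKM. Of all genes 13.2% were higher at 3 d and 11.8% to 15.4% later, so this count was close to the background. After median-ratio scaling Atic was called at 3 d only (0.64), beside 9.00% of all genes. Another gene of the list was then lower at 14 and 28 d, beside 7.53% and 8.11%.

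**Figure D5:**
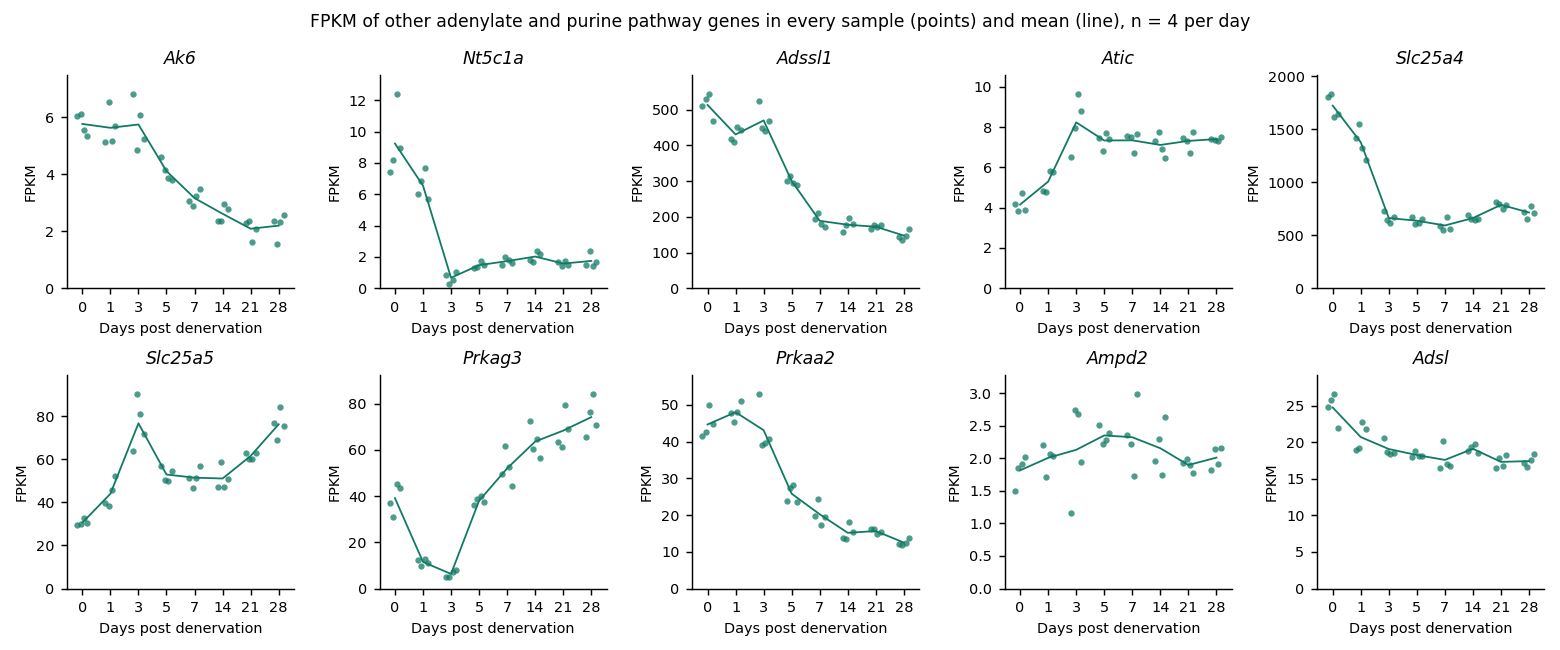
FPKM (y axis, linear from 0, its own scale in each panel) of 10 other adenylate and purine pathway genes at 0 to 28 d post denervation, where points are samples and lines join means (n = 4). Nt5c1a, Prkag3 and Slc25a4 are low at 3 d, Prkag3 is above its 0 d mean by 28 d, and Adssl1 and Prkaa2 are called lower from 5 d on.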

How the data were processed

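RNA of 32 GAS muscles at 8 time points was sequenced with a VAHTS Universal V6 kit by the study's methods, while the labels name TruSeq. The authors deposited FPKM values, 1 per gene and sample. The submitters' processing notes name CASAVA, HISAT2 2.1.0, DESeq2 and GRCm38, and the counting tool is not given in the sources used here. Merged exon lengths of GENCODE mouse release M21 (GRCm38) matched 33356 of 33397 gene identifiers and turned FPKM back into fragments. Of the values under 200 fragments, 99.3% to 99.4% in each sample were whole within 0.05. Depth ranged from 14199901 to 17561588 fragments per sample (median 16663161). Mitochondrial genes took 14.5% to 18.2% of fragments at 0 d and 6.70% to 13.5% from 3 d on, and a smaller share raises the FPKM of other genes.

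The columns name the time point but no titled sample, so each set of 4 served as the replicates of its time point, numbered in table order. log2(FPKM + 1) was fitted with limma 3.58.1 under R 4.3.3, with a variance trend, over all 32 samples and 8 groups, for genes that reached 0.1 FPKM in 4 samples or more. Calls needed 1.5-fold and an adjusted p (Benjamini-Hochberg) under 0.05. The fit was also run on simulated data, and the outcome is not given here. Contrasts were each day against 0 d, neighbouring days, and 28 against 3 d. Ratios were taken within samples and not tested. Other steps ran in Python 3.11.15 (matplotlib 3.10.9, scipy 1.17.1, pandas 2.3.3 and numpy 2.4.6).

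The 10 genes and all lists were chosen with earlier results of these data known. All 10 genes are named. In each wider list the 2 genes with the largest absolute log2 fold change among those called are named, plus Adssl1, Ckmt1, Ampd2 and Adsl. For likeness the 2 named genes with the highest Pearson's r are given, leaving out predicted genes. A few genes that these rules would name are not reported here. Alternatives covered the pseudocount, the filter, the scaling, the variance trend, limma-voom on recovered fragments, the samples in the fit, the fold threshold and leaving out each sample. Steps between days without 1 sample were added after seeing the data.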

Additional observations from a re-analysis of the deposited data

Results flagged for a closer look

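Among the 80 groups of 4 samples (10 genes at 8 time points), 2 held a sample whose gap to its neighbour exceeded Dixon's 95% critical value, where chance gives about 4. Ckmt2 at 1 d had 1 sample at 703 FPKM against 538 to 555 in the other 3. Ak1 at 21 d had 1 sample at 183 FPKM against 177 to 178, a small gap in a tight group.

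The effect at 28 d differed from the effect at 3 d, by the limma contrast of both days, in 5 of the 10 genes. The log2 difference of 28 minus 3 d was -1.06 for Ckm and -1.37 for Ampd3. It was 0.64 for Ak1, 1.44 for Ampd1 and 1.70 for Gamt. Ampd1, Ak1 and Ampd3 thus lay nearer to their control level at 28 d than at 3 d, and Ckm lay farther from it.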

How the results depend on the processing

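Calls against 0 d were steady for Ckmt2, Ak1, Ampd1 and Ampd3 from 3 d on, which kept direction and call under every alternative run, and for Ckm under all but quantile normalization. The number of the 10 genes called at 1 d went from 4 to 7 under median-ratio scaling and to 7 with no fold threshold. From 3 to 5 d it went from 2 to 4 under median-ratio scaling, and 6 passed the adjusted p threshold alone in the deposited values. From 21 to 28 d it went from 1 to 0 with a pseudocount of 0.1, under TPM, median-ratio scaling and the total without mitochondrial genes. Leaving out each sample gave 4 to 5 calls at 1 d, 6 in all cases at 3 d, 5 to 6 for 5 and 7 d, 5 in all cases for 14, 21 and 28 d, 6 to 8 from 1 to 3 d (8 without replicate 1 of 3 d), 0 to 1 from 14 to 21 d and from 21 to 28 d, and 5 to 6 from 3 to 28 d.
Small log2 fold changes against 0 d changed sign with the scaling. Rescaling to TPM took Gatm to 0.0037 at 3 d, Ckb to 0.18 at 5 d, Adss to 0.025, 0.16 and 0.11 at 7, 14 and 21 d and Gamt to 0.037 at 14 d. Median-ratio scaling took Slc6a8 to -0.046, -0.19, -0.18, -0.070, -0.097 and -0.20 at 1, 5, 7, 14, 21 and 28 d, Adss to -0.034, -0.32 and -0.29 at 3, 5 and 28 d, Gatm to -0.26 at 5 d, Ckb to -0.25, -0.18, -0.18 and -0.11 at 7, 14, 21 and 28 d and Gamt to -0.17 at 21 d. Quantile normalization took Ckm to 0.088 at 1 d, Adss to -0.045, -0.30 and -0.27 at 3, 5 and 28 d, Slc6a8 to -0.15, -0.16, -0.0026, -0.046 and -0.093 at 5, 7, 14, 21 and 28 d, Gatm to -0.24 at 5 d, Ckb to -0.22, -0.15, -0.15 and -0.073 at 7, 14, 21 and 28 d and Gamt to -0.15 at 21 d. Rescaling to the total without mitochondrial genes took Adss to -0.10 and -0.062 at 5 and 28 d, Gatm to -0.048 at 5 d and Ckb to -0.038 and -0.0064 at 7 and 21 d. Leaving out 1 sample moved the sign within -0.063 to 0.088 (Ckb, 5 d), -0.10 to 0.20 (Ckb, 7 d), -0.36 to 0.18 (Gatm, 3 d), -0.11 to 0.22 (Gatm, 5 d) and, for Adss, -0.016 to 0.023, -0.11 to 0.0090, -0.051 to 0.0064 and -3.3e-05 to 0.056 at 5, 14, 21 and 28 d.
Without a pseudocount the log2 ratio of Ckb to Ckm was -9.14, -9.96, -8.19 and -7.30 at 0, 1, 5 and 21 d, that of Ampd3 to Ampd1 -6.76 at 0 d and -2.99 at 21 d, and that of Adss to Adssl1 -6.64, -6.05, -5.86, -5.36, -5.14, -5.09 and -4.79 at 0, 1, 5, 7, 14, 21 and 28 d.
No paired analysis was possible because the columns carry no replicate number of the labels. Depth limits Gamt, Gatm and Ckb most, with as few as 26, 62 and 84 fragments in a sample, against at least 31418 for Ckm.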
